A study of Mus musculus with 12 samples.

Results

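The G2 and mitosis genes described here are 36 genes whose products drive a cell from late G2 through division, and all 36 were found by symbol among the 47729 genes of the expression table. They were followed in E14Tg2a cells, a feeder-independent mouse embryonic stem cell line of strain 129/Ola, during the first day of induction towards epiblast-like cells (EpiLC). Delta cells (delta 0.7) are homozygous for the loss of 0.7 kb of regulatory DNA of Tcf15, which encodes a transcription factor of the basic helix-loop-helix class. WT cells are unmodified E14Tg2a. Both were sampled at 0 h, in N2B27 medium with 2i and LIF, and after 12 h and 24 h in N2B27 to which Activin, bFGF and KOSR had been added, on a fibronectin coat, with 2 libraries in each of the 6 groups. The labels do not say that the libraries of a group came from separate cultures, so p-values measure the spread between these libraries, which may be technical, and the labels do not say how many clones stand for the delta genotype. The delta columns of the deposited table all carry the tag CL1, whose meaning is not given. The deleted stretch lies at chr2:152177049-152177722 (mm10), and the nearest of the 6 members on that chromosome, Tpx2, is 670 kb away.

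Entry into mitosis is driven by Cdk1 bound to cyclins A and B, with Polo-like and Aurora kinases. Kinetochores then attach chromosomes to the spindle while the spindle checkpoint holds back Cdc20, which activates the anaphase promoting complex, the ubiquitin ligase that destroys cyclin B and securin. In many mammalian cells these genes are transcribed in late G2 by B-Myb, FoxM1, NF-Y and the MuvB complex, through CCAAT boxes and the cell cycle homology region (CHR), and they are held down in G0 and G1 by the DREAM complex at the same CHR. Mouse embryonic stem cells have short gap phases and high Cdk activity, so a large share of them is in S, G2 or M phase at any time. In bulk RNA, a lower share of cells in G2 and M cannot be told apart from less of the transcript in each such cell.

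Promoter sequence was available in RefSeq (GRCm38.p6, 250 bases before to 50 bases after each annotated start) for 31 of the 36 members, in 33 windows. Ccna2, Kif20a, Incenp, Tpx2 and Aurkb had no entry. Each window was searched on both strands for the CCAAT box, which reads ATTGG from the opposite strand, and for the core of the CHR, which reads TTTGAA from one strand and is TTCAAA when read from the other. No CCAAT box overlaps a CHR core in the windows printed, while CCAAT boxes on opposite strands can share letters. A CCAAT box stood in 25 windows (75.8%), against 37.4% of the 32851 windows of all genes. A CHR core stood in 25 (75.8%), against 17.9%, and both stood in 21 (63.6%), against 6.95%. At least 2 CCAAT boxes were found in 18 windows (54.5%), against 11.7% of all. Windows of Cdc20, Ube2c, Hmmr, Cdk1 and Nusap1 are printed with the matches in capitals, because they span the patterns. They are Cdc20, the member with the highest level, Ube2c and Hmmr, with the most CCAAT boxes among those printed, Cdk1, with 2 CHR cores, and Nusap1, which held neither motif and had the largest change of the members in WT cells between 0 h and 12 h.

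Cdc20 (chr4:118437294-118437593, minus strand): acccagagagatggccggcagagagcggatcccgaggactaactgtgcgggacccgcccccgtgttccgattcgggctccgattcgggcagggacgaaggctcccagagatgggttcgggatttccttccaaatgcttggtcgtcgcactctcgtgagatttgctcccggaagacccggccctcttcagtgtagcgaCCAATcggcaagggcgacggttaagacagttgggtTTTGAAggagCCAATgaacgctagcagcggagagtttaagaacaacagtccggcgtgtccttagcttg

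Ube2c (chr2:164769679-164769978, plus strand): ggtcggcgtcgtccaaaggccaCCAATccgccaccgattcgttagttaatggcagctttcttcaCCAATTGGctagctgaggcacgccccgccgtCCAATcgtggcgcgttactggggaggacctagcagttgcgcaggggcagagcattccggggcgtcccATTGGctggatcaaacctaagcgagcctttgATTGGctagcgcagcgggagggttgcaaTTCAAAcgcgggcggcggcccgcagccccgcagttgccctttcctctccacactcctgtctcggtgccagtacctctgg

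Hmmr (chr11:40733388-40733687, minus strand): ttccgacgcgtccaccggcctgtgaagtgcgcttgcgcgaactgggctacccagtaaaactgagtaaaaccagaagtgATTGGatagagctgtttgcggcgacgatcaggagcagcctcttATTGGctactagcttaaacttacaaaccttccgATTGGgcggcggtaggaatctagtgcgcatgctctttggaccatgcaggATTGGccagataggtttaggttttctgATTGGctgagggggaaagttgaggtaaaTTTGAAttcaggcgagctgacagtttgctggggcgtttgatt

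Cdk1 (chr10:69352863-69353162, minus strand): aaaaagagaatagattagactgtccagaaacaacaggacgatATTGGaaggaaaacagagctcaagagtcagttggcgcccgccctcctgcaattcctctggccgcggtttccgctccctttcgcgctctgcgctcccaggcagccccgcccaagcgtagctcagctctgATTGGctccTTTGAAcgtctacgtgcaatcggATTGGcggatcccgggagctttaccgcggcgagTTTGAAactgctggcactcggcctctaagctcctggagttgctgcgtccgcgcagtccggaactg

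Nusap1 (chr2:119618048-119618347, plus strand): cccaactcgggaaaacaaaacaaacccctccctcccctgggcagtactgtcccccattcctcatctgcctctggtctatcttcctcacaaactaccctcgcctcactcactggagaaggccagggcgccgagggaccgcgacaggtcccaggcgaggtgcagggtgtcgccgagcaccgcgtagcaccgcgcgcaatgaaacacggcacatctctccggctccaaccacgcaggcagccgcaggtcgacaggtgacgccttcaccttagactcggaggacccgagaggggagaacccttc

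In Ube2c the 8 capitals in a row hold a pair of boxes on opposite strands that overlap, and they were counted as 2 of its 6. Hmmr held 5 boxes, on the strand opposite to transcription, and 1 CHR core just after the start. The Kif2c window held 1 CHR core and no CCAAT box, but its RefSeq start lies inside the gene as GENCODE annotates it. A match is a run of letters and was not tested for binding, and a window without a match says nothing of motifs elsewhere in the gene.

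The libraries were checked first. The depth recovered from the table was 9740851 to 17571289 reads, and each member was covered by 248 reads (Cenpe, its lowest library) to 15546 reads (Top2a, its highest). Levels are in FPKM (fragments per kilobase, corrected for gene length and for a library size). That size was 75.5% of the recovered reads in delta 0 h replicate 1 and 92.2% in WT 0 h replicate 1. In the other libraries it was 99.7% to 107.0%. A smaller size gives a higher FPKM for the same share of reads. Tcf15 was at 1.04 to 4.44 FPKM in the delta libraries and at 3.45 to 99.4 FPKM in WT. Averaged over times Tcf15 was lower in delta by limma (log2 difference -3.27 ± 0.27 SE, adjusted p = 0.00504). The summed level of 12 naive pluripotency markers was 429 to 443 FPKM at 24 h and 1520 to 1730 FPKM at 0 h in delta. In WT it was 614 to 623 FPKM at 24 h and 1500 to 1550 FPKM at 0 h. Among these markers Nr0b1 went the other way, at 134 and 107 FPKM at 24 h and 50.3 and 39.7 FPKM at 0 h in delta. In WT Nr0b1 was at 157 and 147 FPKM at 24 h and 62.7 and 34.1 FPKM at 0 h. The 8 formative epiblast markers summed to 543 to 556 FPKM at 24 h and 32.3 to 35.6 FPKM at 0 h in delta, and to 361 to 429 FPKM at 24 h and 39.3 to 40.4 FPKM at 0 h in WT. Pou5f1 was at 535 FPKM or more throughout, and 7 primitive endoderm markers together did not pass 0.99 FPKM in any library. At 0 h, 7 trophoblast markers summed to 16 to 23.4 FPKM in delta and 21.5 to 28.9 FPKM in WT. Likewise at 0 h, 6 neural markers summed to 29.6 to 48.7 FPKM in delta and 19.8 to 40.2 FPKM in WT. The 2 replicate 1 libraries of 0 h stood apart in ribosomal protein genes. These genes took 13.4% of the reads in delta and 11.4% in WT, against 5.73% to 7.5% in the other 10 libraries. Mitochondrial genes instead split the libraries by replicate number, at every time and in both genotypes. Their share of reads never passed 0.647% where the number was 1. Where it was 2, the share was never under 1.797%. The cause of this split was not tested. Of 12 smooth muscle and fibroblast genes, 8 had their highest level in a WT replicate 1 library. Tagln was at 0.281 to 1.33 FPKM in delta, at 7.84, 21.1 and 15.2 FPKM in WT replicate 1 at 0, 12 and 24 h, and at 1.16 to 2.91 FPKM in WT replicate 2. The other 4 peaked elsewhere, with Vim (144 FPKM) highest in delta 0 h replicate 1, Fn1 (149 FPKM) in delta 0 h replicate 2, Pdgfrb (0.631 FPKM) in WT 0 h replicate 2 and Cnn1 (0.523 FPKM) in delta 24 h replicate 2.

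All 36 members were well expressed in naive and induced cells of both genotypes, and all 36 passed the filter on low values (at least 1 FPKM in at least 2 libraries, 13981 genes). On the FPKM scale, which is per length, the highest mean over the 12 libraries was that of Cdc20 at 235 FPKM, and the lowest were those of the large kinetochore proteins Cenpe (10.3 FPKM) and Cenpf (10.6 FPKM) and of Nuf2 (10.7 FPKM). Next below Cdc20 came the B-type cyclin Ccnb2 (99.7 FPKM), the Polo-like kinase Plk1 (97.9 FPKM), the ubiquitin-conjugating enzyme Ube2c (96.4 FPKM), the B-type cyclin Ccnb1 (90.1 FPKM) and the DNA topoisomerase Top2a (87.8 FPKM), whose libraries overlapped one another. Together the members took 0.562% to 0.816% of the reads of a library, the lowest share in the delta 0 h replicate 1 library. In that library genes annotated as ribosomal RNA, with Gm26917, Gm42418 and similar loci, took 8.06% of the reads, against at most 3.55% in any other, and the FPKM of the members summed to 1910, within the range of the 12 libraries (1604 to 2036).

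**Figure D1:**
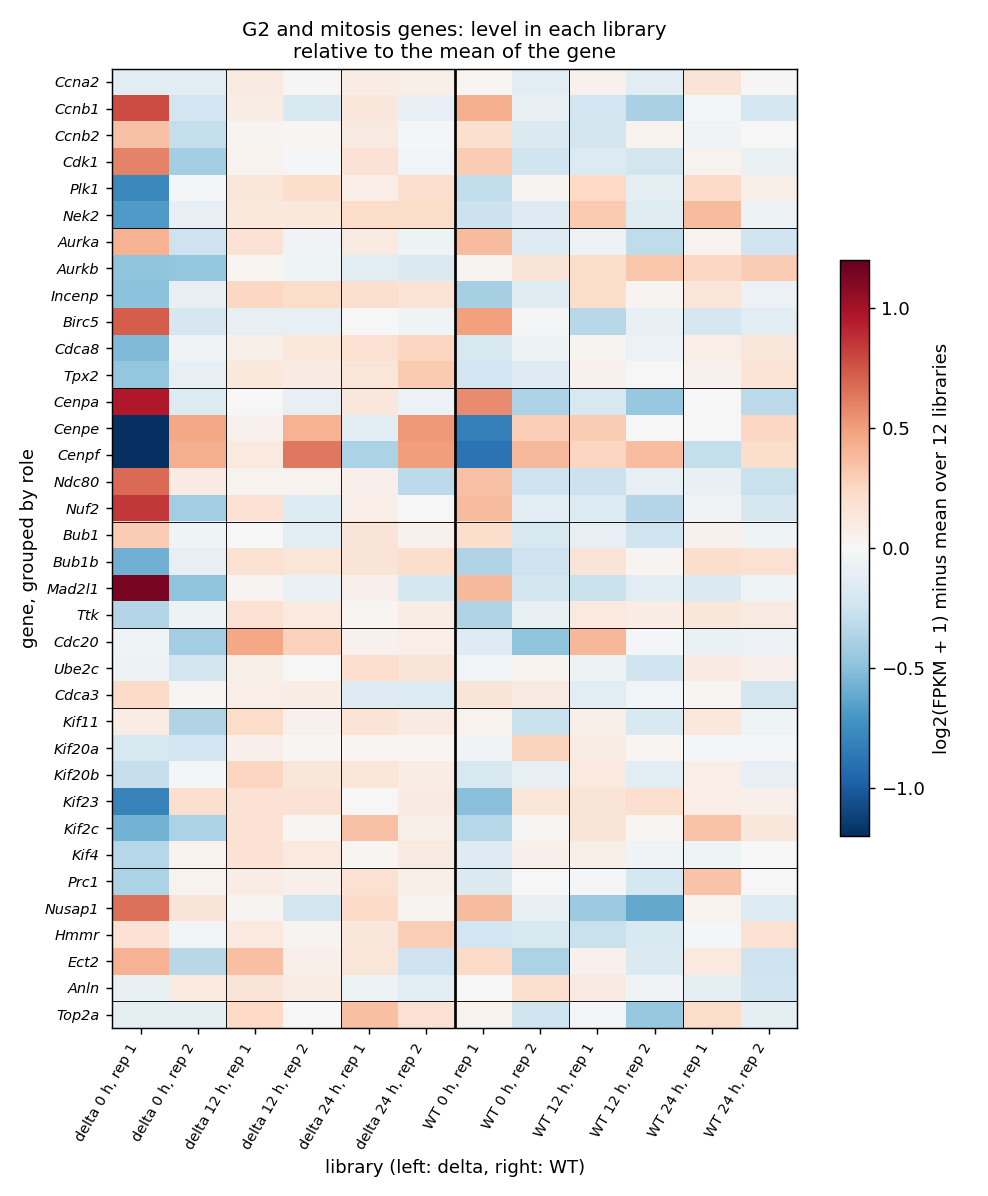
Level of each of the 36 genes (rows, grouped by role) in each of the 12 libraries (columns, delta left and WT right, by time and replicate), as log2(FPKM + 1) minus the mean of that gene, in color. The 2 replicate 1 columns of 0 h hold the deepest reds (Mad2l1, Cenpa) and blues (Cenpe, Cenpf), and the 12 h and 24 h columns are paler.

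Most members stayed within a 2-fold range. Over all 12 libraries the highest level was less than 2-fold above the lowest for 23 of 36 members (median range 1.77-fold). Ccna2, the cyclin that binds Cdk2 in S phase and Cdk1 in G2, had the narrowest range, 1.22-fold, from 64.3 to 78.7 FPKM. Within the 8 libraries of 12 h and 24 h, 35 of 36 stayed under 2-fold (median 1.32-fold), with Cenpf the exception at 2.15-fold. Within the 4 libraries of 0 h, 28 stayed under 2-fold (median 1.47-fold). The same was not counted over all tested genes, so these ranges are not shown to be particular to the members.

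Between 0 h and 24 h of induction 1 of 36 members changed in delta cells and 0 of 36 in WT cells, at an adjusted p under 0.05 over all 13981 genes. The background was 15.4% of all genes called in delta (7.58% higher and 7.80% lower) and 10.2% in WT (5.27% higher and 4.94% lower). Of the members, 6 in delta and 1 in WT had p below 0.05 before adjustment, as had 30.5% and 24.1% of all genes. With voom weights on the recovered reads the counts were also 1 and 0. The median change of the members in log2(FPKM + 1) was 0.25 in delta and 0.14 in WT, beside all-gene medians of -0.05 and -0.03, and 23 members in delta and 22 in WT lay above 0. The standard error of a member's change had a median of 0.21, so a change of the size of these medians could not be called for a typical member with 2 libraries a group. The changes from 0 h to 12 h and to 24 h share the 0 h libraries and are not independent.

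Kif2c (ENSMUSG00000028678, chr4:117159639-117182639 in mm10, minus strand), a kinesin that takes apart microtubule ends to free faulty attachments at the kinetochore, was the member called. In delta cells it was at 19.9 and 22.9 FPKM at 0 h, 33.9 and 30.5 FPKM at 12 h, and 38.6 and 31.6 FPKM at 24 h. In WT cells it was at 23.4 and 30.2 FPKM at 0 h, 33.6 and 30.4 FPKM at 12 h, and 38.2 and 32.9 FPKM at 24 h. Both 24 h libraries of delta lay above both 0 h libraries, and so did those of WT. Kif2c was picked by its call in this same delta change, so the separation in delta is no further support. The change over 24 h was 0.69 ± 0.19 (SE) in delta (limma, adjusted p = 0.0433) and 0.40 ± 0.19 in WT (adjusted p = 0.248), on the log2(FPKM + 1) scale. The difference between these changes was 0.29 ± 0.27 (adjusted p = 1), so the genotypes were not shown to differ. The call held without both replicate 1 libraries of 0 h (0.59, adjusted p = 0.0355), but the p no longer passed when delta 0 h replicate 1 was left out (0.59, adjusted p = 0.103), without either delta 24 h library (adjusted p = 0.249 and 0.105), without either delta 12 h library (0.0786 for each) or any WT library of 12 h or 24 h (0.0677 to 0.0698), and with no filter on low values (0.0514). Over the alternatives the value itself stayed between 0.55 and 0.83, and it was 0.69 without any 1 library of delta at 12 h or of WT.

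**Figure D2:**
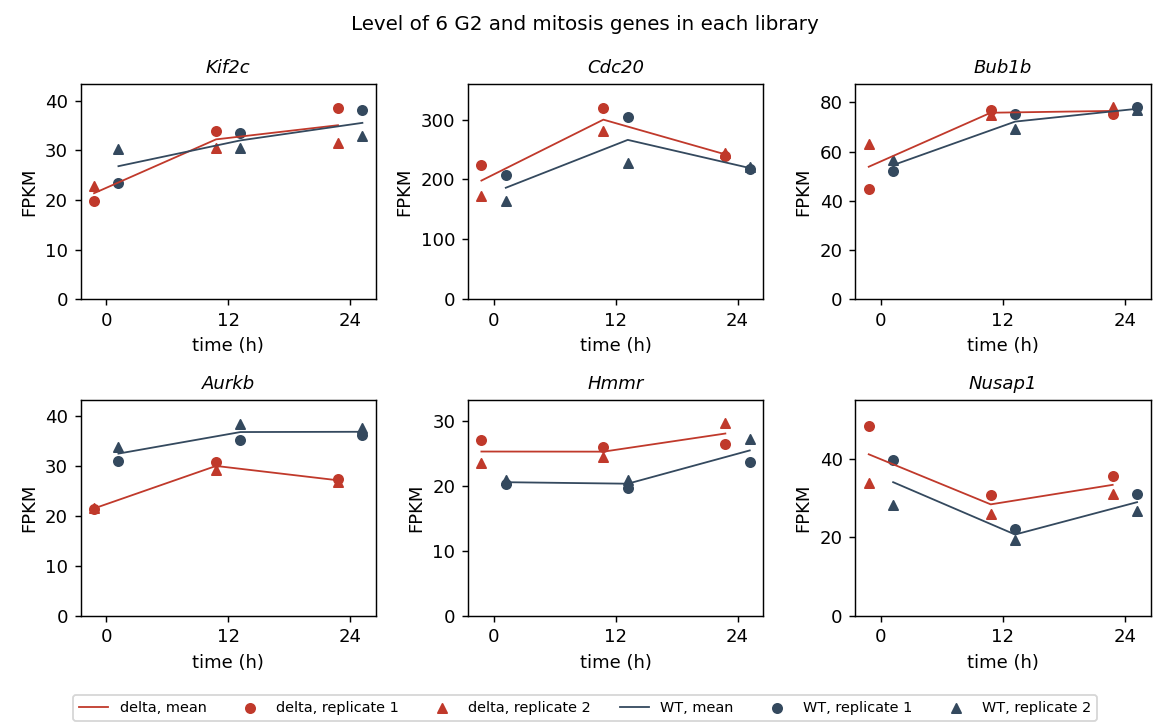
Level in FPKM (vertical axes, from 0) of Kif2c, Cdc20, Bub1b, Aurkb, Hmmr and Nusap1 at 0, 12 and 24 h (horizontal axes), with delta in red and WT in dark blue, shifted slightly sideways for clarity. Circles and triangles are replicate 1 and replicate 2, and lines join the means of 2 libraries. Kif2c and Bub1b are lowest at 0 h in both genotypes, Cdc20 is highest at 12 h, and both delta points of Aurkb lie below both WT points at each time. Each delta point of Nusap1 lies above the WT point of the same time and replicate number, but the points of the genotypes overlap at 0 h and 24 h.

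The next smallest p-values for the 24 h change in delta were those of Tpx2, Bub1b and Cdca8, none of them called; Tpx2 was picked out after its values were seen. Tpx2, which activates Aurora A on spindle microtubules, was at 56.3 and 63.6 FPKM at 24 h and 36.6 and 47.5 FPKM at 0 h in delta. In WT it was at 52.7 and 57.2 FPKM at 24 h and 43.2 and 45.6 FPKM at 0 h. The Tpx2 change was 0.51 ± 0.18 in delta (limma, adjusted p = 0.0827) and 0.30 ± 0.18 in WT (adjusted p = 0.345). Bub1b, the BubR1 protein of the checkpoint, had the smallest p in WT. It was at 75.1 and 77.9 FPKM at 24 h and 44.7 and 62.9 FPKM at 0 h in delta. In WT it was at 78.0 and 76.8 FPKM at 24 h and 52.3 and 56.7 FPKM at 0 h. The groups of 0 h and 24 h did not overlap in either genotype, but Bub1b was picked by its p in these same changes. The changes were 0.52 ± 0.19 in delta (limma, adjusted p = 0.0997) and 0.50 ± 0.19 in WT (adjusted p = 0.139). Without both replicate 1 libraries of 0 h, the delta change was 0.48 for Cdk1, 0.40 for Ube2c, 0.49 for Kif11 and 0.59 for Kif2c. The WT change of Bub1b was then 0.44. These genes were picked by their p in that fit, where 1 library stands for each 0 h group. Without delta 0 h replicate 2, the 0 h group of delta is set by the replicate 1 library that stood apart.

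By role, 4 of the 6 genes for cyclins, Cdk1, Plk1 and the centrosomal kinase Nek2 had a 24 h change above 0 in delta and 3 in WT. The values ran from -0.25 (Ccnb1) to 0.61 (Nek2) in delta and from -0.29 (Ccnb1) to 0.36 (Nek2) in WT. Cdk1 itself was at 70.1 ± 33.5 FPKM at 0 h, 62.4 ± 1.56 FPKM at 12 h and 65.0 ± 6.6 FPKM at 24 h in delta and at 64.3 ± 17.1, 54.0 ± 1.55 and 60.9 ± 3.68 FPKM in WT (SD, n = 2). Of the Aurora kinases, their partner Tpx2 and the chromosomal passenger complex, which corrects attachments and then guides cytokinesis, 4 of 6 lay above 0 in each genotype. Birc5 (survivin) was the lowest of them, at -0.29 in delta and -0.40 in WT, while its partner Incenp was at 0.47 and 0.31.

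The kinetochore genes had 2 of 5 changes above 0 in each genotype, the motor Cenpe and Cenpf, and 3 below 0, the centromeric histone Cenpa and the microtubule-binding Ndc80 and Nuf2. Their medians were -0.18 in delta and -0.23 in WT. Of the 4 checkpoint genes, Bub1b and the kinase Ttk (Mps1) lay above 0 and the kinase Bub1 and Mad2l1 (Mad2) below 0, in both genotypes. Ttk had the third smallest p of the WT change (0.35 ± 0.17, adjusted p = 0.257, limma). Among the genes of cyclin destruction and its timing, Cdc20 and Ube2c lay above 0 and Cdca3, which helps to remove the Cdk1 inhibitor Wee1, below 0 (-0.28 in delta, -0.23 in WT).

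All 6 kinesin genes lay above 0 in delta (0.22 to 0.69) and 5 of 6 in WT (-0.13 to 0.40). They are Kif11 (Eg5), which pushes spindle poles apart, Kif20a, Kif20b and Kif23, which work in the midzone and in cytokinesis, Kif4, a chromosome-bound motor, and Kif2c. The one below 0 in WT was Kif20a, at 75.3 FPKM in both WT libraries of 24 h and at 74.2 and 92.2 FPKM in those of 0 h. Of the spindle and cytokinesis genes, the microtubule bundler Prc1 and the spindle protein Hmmr lay above 0 in both genotypes, Nusap1 and anillin (Anln) below 0 in both, and the cytokinesis gene Ect2 at -0.09 in delta and 0.02 in WT. Top2a, which untangles sister chromatids, was at 0.39 in delta and 0.16 in WT. None of the values in these groups passed the test except that of Kif2c in delta.

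**Figure D3:**
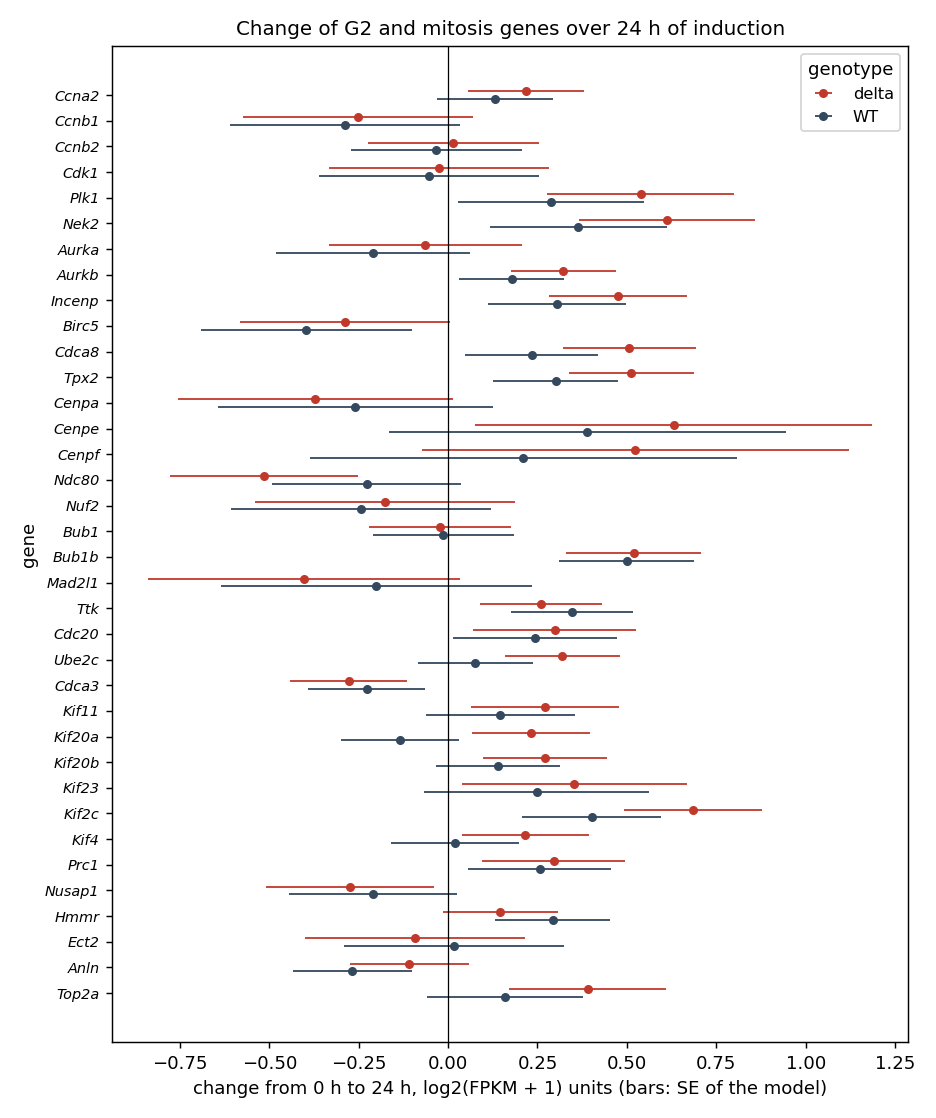
Change between 0 h and 24 h (horizontal axis, difference in log2(FPKM + 1)) for each of the 36 genes (vertical axis, grouped by role), with delta in red above WT in dark blue; bars are ± 1 SE of the model. The bars of Cenpe, Cenpf and Mad2l1 are the widest, and Kif2c in delta, at 0.69, is the one change that passed the test.

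Between 0 h and 12 h, 0 of 36 members were called in delta and 0 in WT, where 7% and 4.03% of all genes were called. At an unadjusted p under 0.05 there were 5 members in delta and 1 in WT, beside 23.4% and 16.8% of all genes, and voom on the recovered reads also called 0 members. The member median was 0.24 in delta and -0.004 in WT, and with quantile normalization it was 0.41 and 0.16. In delta the smallest p-values were those of Aurkb, Kif2c and Incenp. Aurkb, the kinase of the passenger complex, was at 30.8 and 29.3 FPKM at 12 h in delta, against 21.4 and 21.6 FPKM at 0 h (0.46 ± 0.15, limma adjusted p = 0.10). Kif2c was at 0.57 ± 0.19 (adjusted p = 0.119) and Incenp, the scaffold of the passenger complex, at 0.53 ± 0.19 (adjusted p = 0.141). The 12 h libraries lay above the 0 h libraries for all 3 genes. These genes were picked by their p in this same contrast, so the separation is no further support.

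In WT the smallest p-values for the 12 h change were those of Nusap1, Cdc20 and Bub1b. Nusap1 (chr2:119618298-119651244, plus strand), which bundles spindle microtubules near chromosomes, was at 48.4 and 33.8 FPKM at 0 h, 30.9 and 25.8 FPKM at 12 h and 35.6 and 31.0 FPKM at 24 h in delta. In WT it was at 39.7 and 28.3 FPKM at 0 h, 22.01 and 19.3 FPKM at 12 h and 31.0 and 26.8 FPKM at 24 h. Its mean was lowest at 12 h in both genotypes. The WT change to 12 h was -0.67 ± 0.24 (limma, adjusted p = 0.178), and with the replicate number as a block it passed (-0.67, adjusted p = 0.0372). Cdc20 went the other way: in delta it was at 223 and 173 FPKM at 0 h, 319 and 280 FPKM at 12 h and 239 and 244 FPKM at 24 h, and in WT at 207 and 165, 305 and 227, and 218 and 220 FPKM. Its change to 12 h was 0.60 ± 0.23 in delta (adjusted p = 0.153) and 0.51 ± 0.23 in WT (adjusted p = 0.306), and Bub1b in WT was at 0.40 ± 0.19 (adjusted p = 0.333). Without both replicate 1 libraries of 0 h, the change to 12 h in delta was 0.79 for Cdc20 and 0.46 for Aurkb.

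Between 12 h and 24 h, 0 of 36 members were called in either genotype, where 1.36% of all genes were called in delta and 0.408% in WT. No member had an unadjusted p under 0.05 in either, beside 9.72% and 7.8% of all genes, and voom called 0 members. The member medians were 0.01 in delta and 0.08 in WT. The smallest p-values in delta were those of Cdca3 (-0.24 ± 0.16), Cdc20 (-0.31 ± 0.23) and Anln (-0.22 ± 0.17), with limma adjusted p of 0.82, 0.887 and 0.902. In WT they were those of Nusap1 (0.46 ± 0.24), Hmmr (0.31 ± 0.16) and Prc1 (0.29 ± 0.20), with adjusted p of 0.779, 0.809 and 0.981.

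No member differed between delta and WT at an adjusted p under 0.05, at 0 h, 12 h or 24 h or averaged over the 3 times, by limma or by voom. Few genes of any kind did: 0.00715% of all genes at 0 h, 0.0143% at 12 h, 0.00715% at 24 h and 0.0143% averaged. At an unadjusted p under 0.05 there were 1, 0 and 1 members at 0, 12 and 24 h and 2 averaged over times, beside 2.02%, 0.887%, 1.53% and 4.33% of all genes. The member median of delta minus WT was -0.02 at 0 h, 0.13 at 12 h and 0.09 at 24 h, beside all-gene medians of 0.01, 0.01 and 0.00. At 12 h 33 of the 36 members (91.7%) lay above 0, beside 52.6% of all genes. At 0 h 14 members lay above 0 and at 24 h 28. The members share libraries, so these counts describe 4 libraries at each time and are no test. Within same-numbered pairs the member median at 12 h was 0.11 for replicate 1 and 0.19 for replicate 2, and at 0 h it was -0.05 and 0.03.

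Aurkb (ENSMUSG00000020897, chr11:69045647-69051664 in mm10, plus strand) had the smallest p of the members in the averaged contrast and at each single time. In delta it was at 21.4 and 21.6 FPKM at 0 h, 30.8 and 29.3 FPKM at 12 h and 27.5 and 26.8 FPKM at 24 h, against 31.1 and 33.9, 35.2 and 38.5, and 36.2 and 37.6 FPKM in WT. The genotypes did not overlap at any of the 3 times, and delta was lower in all 6 same-numbered pairs. Of all tested genes, 7.01% were lower in delta in all 6 pairs, and the share without overlap at all 3 times was not counted. Aurkb was picked by its p in these same contrasts, so the separation is no further support. The averaged difference was -0.43 ± 0.09 (95% interval -0.62 to -0.24, unadjusted p = 0.00067), and over all genes it did not pass (limma, adjusted p = 0.859). It was -0.57 ± 0.15 at 0 h, -0.28 ± 0.15 at 12 h and -0.43 ± 0.15 at 24 h, each with an adjusted p of 1. Over the 22 alternatives the averaged value stayed between -0.45 and -0.41 with adjusted p from 0.108 to 1. Aurkb lies on chromosome 11, whose 1157 tested genes had a median difference of -0.01.

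Hmmr and Nusap1 followed, with higher values in delta. Hmmr, a spindle protein that helps Tpx2 and Aurora A at the poles, was at 27.1 and 23.5 FPKM at 0 h, 26.03 and 24.5 FPKM at 12 h and 26.5 and 29.7 FPKM at 24 h in delta. In WT it was at 20.3 and 20.9, 19.7 and 21.0, and 23.6 and 27.3 FPKM. The genotypes did not overlap at 0 h and 12 h and overlapped at 24 h. Hmmr too was picked by its p in these contrasts, so this separation is no further support. The averaged differences were 0.24 ± 0.09 for Hmmr and 0.30 ± 0.14 for Nusap1, each with a limma adjusted p of 1. Other small p-values at single times were those of Kif20a (-0.32 ± 0.16) and Hmmr (0.28 ± 0.16) at 0 h, Hmmr (0.30 ± 0.16) and Nusap1 (0.43 ± 0.24) at 12 h, and Top2a (0.21 ± 0.22) and Hmmr (0.14 ± 0.16) at 24 h, all with an adjusted p of 1.

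In all 6 pairs 5 members were higher in delta (13.9%), where 6.84% of all tested genes were: Hmmr, Nusap1, Cdc20, Cenpa and Bub1. The member Aurkb, was lower in all 6 (2.78%), where 7.01% of all genes were, so 16.7% of the members and 13.8% of all genes had the same sign in every pair. Cdc20, Cenpa and Bub1 were picked out after their values were seen. Their averaged differences were 0.14 ± 0.13 for Cdc20, 0.26 ± 0.22 for Cenpa and 0.11 ± 0.11 for Bub1. Over the 36 members the averaged difference ran from -0.43 (Aurkb) to 0.30 (Nusap1) with a median of 0.06. The widest 95% intervals were those of Cenpf (-0.80 to 0.76) and Cenpe (-0.73 to 0.72), so differences of that size in either direction remain within error for them. For the narrow-range Ccna2 the interval was -0.20 to 0.22. The 12 fibroblast genes, of which Postn was at 0 in both delta libraries of 12 h and of 24 h and Lox in both of 0 h, summed to 174 to 270, 122 to 154 and 62.5 to 78.4 FPKM in delta at 0, 12 and 24 h, and to 191 to 201, 135 to 232 and 88.9 to 134 FPKM in WT, with their part in these differences not tested.

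**Figure D4:**
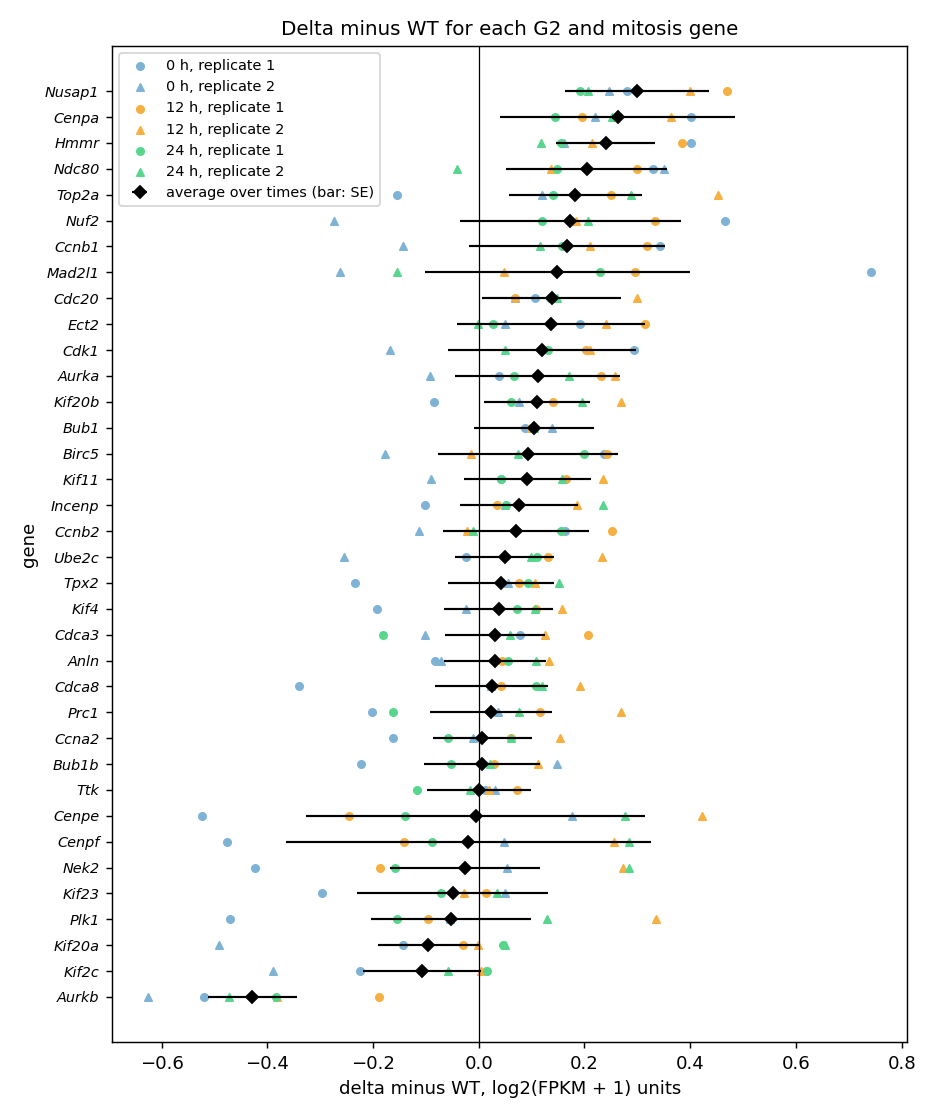
Delta minus WT in log2(FPKM + 1) (horizontal axis) for each of the 36 genes (vertical axis, ordered by the averaged difference), in the 6 same-numbered pairs of libraries (circles replicate 1, triangles replicate 2; blue 0 h, orange 12 h, green 24 h). Black diamonds are the difference averaged over times with ± 1 SE. All 6 points of Aurkb lie below 0, and those of Nusap1, Cenpa, Hmmr, Cdc20 and Bub1 lie above 0.

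No member was shown to differ between the genotypes in its change over time. The interaction contrasts called 0 of 36 members for the change to 12 h and 0 for the change to 24 h, by limma and by voom, and 0 at an unadjusted p under 0.05; 0% of all genes were called in either. The member median of the difference in change was 0.17 at 12 h and 0.11 at 24 h. For the 12 h change the smallest p-values were those of Ube2c (0.32 ± 0.23), Aurkb (0.29 ± 0.21) and Kif20a (0.30 ± 0.23), and for the 24 h change those of Kif20a (0.36 ± 0.23), Ube2c (0.24 ± 0.23) and Kif2c (0.29 ± 0.27). Each had an adjusted p of 1.

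Replicates of 1 group differed most at 0 h, where the 2 replicate 1 libraries stood apart. Replicate 1 minus replicate 2 at 0 h ran from -1.81 (Cenpe) to 1.62 (Mad2l1) in delta and from -1.27 (Cenpf) to 0.94 (Cenpa) in WT, on the log2(FPKM + 1) scale. Cenpe was at 3.21 and 13.8 FPKM in the replicate 1 and 2 libraries of delta and at 5.05 and 12.1 FPKM in those of WT. Mad2l1 was at 45.5 and 14.2 FPKM in delta and 26.8 and 17.2 FPKM in WT. Cenpa was at 65.4 and 29.6 FPKM in delta and 49.2 and 25.3 FPKM in WT. The difference had the same sign in delta and WT for 33 of the 36 members. Over the members its SD was 0.77 in delta and 0.48 in WT at 0 h, and 0.16 to 0.24 in the 4 groups of 12 h and 24 h.

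The difference went with the length of the coding sequence. Over the 36 members the Spearman correlation with the longest coding length was -0.53 in delta and -0.52 in WT at 0 h, where the points share the same pair of libraries; over the 11311 tested genes with a coding length it was -0.54 and -0.47. The 16 members under 1.5 kb had a median of 0.57 in delta and 0.42 in WT, and the 9 over 3 kb had medians of -0.25 and -0.11. Cenpe and Cenpf have the longest coding sequences (7.41 and 8.99 kb) and Cenpa the shortest (0.402 kb). Members of 1 complex moved apart in these libraries: Birc5 (0.42 kb) was at 73.1 and 37.8 FPKM in the replicate 1 and 2 libraries of delta at 0 h while Incenp (2.64 kb) was at 44.1 and 58.4 FPKM. In delta at 24 h the replicate difference also went with length, with a correlation of -0.32 over the members and -0.37 over all genes. In the other groups of 12 h and 24 h it was -0.08 to 0.21 over the members and -0.14 to 0.20 over all genes. With a trend on coding length removed from each library, the member median of the 24 h change was 0.10 in delta and 0.03 in WT, and Kif2c (0.57, adjusted p = 0.0328) and Aurkb (0.47, adjusted p = 0.0479) were called in delta.

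**Figure D5:**
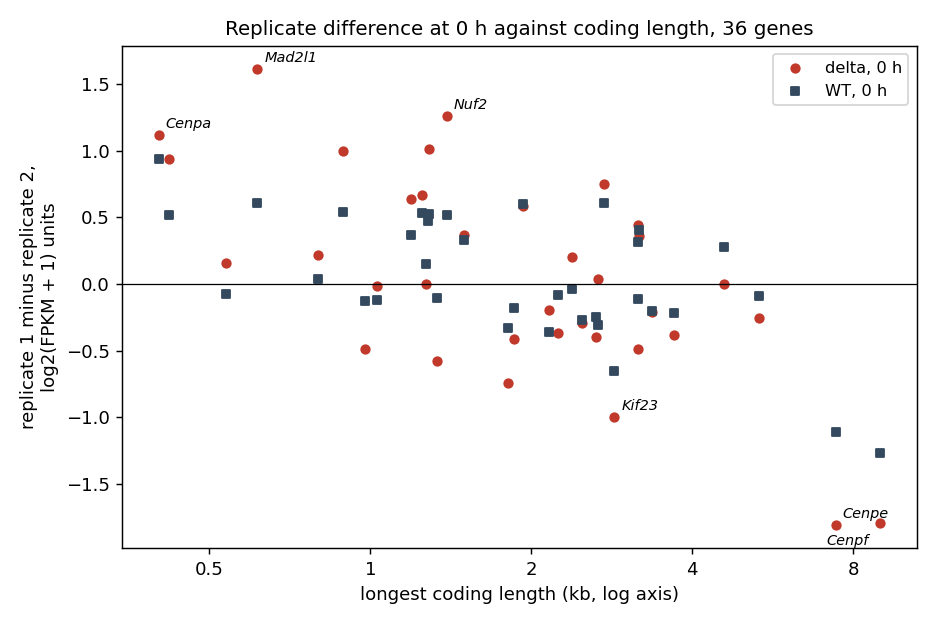
Replicate 1 minus replicate 2 at 0 h in log2(FPKM + 1) (vertical axis) against the longest annotated coding length in kb (horizontal axis, log scale) for the 36 genes, with delta as red circles and WT as dark blue squares. Points fall from upper left (Cenpa, Mad2l1) to lower right (Cenpe, Cenpf) in both genotypes.

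Other genes of the same processes were taken from 7 lists with 195 genes, all of which were tested. In the 24 h change the 33 further kinetochore and centromere genes had 0 called in either genotype, with medians of -0.09 in delta and -0.08 in WT, and so did the 21 further checkpoint and anaphase promoting complex genes, with medians of -0.33 and -0.21. Of 21 condensin, cohesin and separase genes, 1 was called in delta and 0 in WT: Wapl, which releases cohesin from DNA, rose to 64.2 FPKM at 24 h in delta, against 37.8 FPKM at 0 h (0.77 ± 0.21, limma adjusted p = 0.0347). Of 17 mitotic entry kinases, phosphatases and their partners, 1 was called in delta and 0 in WT. This was Haspin, the kinase that marks histone H3 for the passenger complex, at 21.5 FPKM at 24 h and 10.4 FPKM at 0 h (0.98 ± 0.21, adjusted p = 0.013). Of 29 further spindle and cytokinesis genes, Cep55, an abscission protein, fell in delta to 28.3 FPKM, against 43.1 FPKM at 0 h (-0.59 ± 0.17, adjusted p = 0.0473), and 0 were called in WT.

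Of 26 transcription regulators of these genes, 4 rose and 3 fell in delta over 24 h, and 3 rose and 2 fell in WT. E2f8, an E2F that represses cell cycle genes, rose to 14.4 FPKM in delta, against 3.21 FPKM at 0 h (1.88 ± 0.19, limma adjusted p = 4e-04), and to 14.8 FPKM in WT, against 4.22 FPKM (1.61 ± 0.19, adjusted p = 0.0011). Tfdp2, a partner of E2F proteins, rose by 1.27 ± 0.20 in delta and 1.07 ± 0.20 in WT (adjusted p = 0.0029 and 0.0089). Cdkn1a (p21), an inhibitor of Cdks, was at 23.4 and 35.1 FPKM at 24 h in delta, against 70.5 and 155 FPKM at 0 h, and at 16.5 and 29.4 FPKM in WT, against 66.0 and 114 FPKM, and fell in both (-1.83 ± 0.44 and -1.93 ± 0.44, adjusted p = 0.0226 and 0.0234). Of 48 S phase genes, 5 rose and 1 fell in delta and 1 rose in WT. Cyclin E1 (Ccne1), the activator of Cdk2 at S phase entry, was the S phase gene called in both, at 155 FPKM at 24 h and 61.6 FPKM at 0 h in delta and 149 FPKM and 59.3 FPKM in WT (1.38 ± 0.32 and 1.33 ± 0.32, adjusted p = 0.0201 and 0.0309). Hells, a chromatin remodeler, and Cdc6, which loads the replicative helicase, also rose in delta (1.01 ± 0.23 and 0.79 ± 0.17, adjusted p = 0.0192 and 0.0147). In the delta against WT contrasts 0 genes of the 7 lists were called. Over all 7 lists, 16 of 195 genes (8.21%) were called in delta and 6 (3.08%) in WT for the 24 h change, under the 15.4% and 10.2% of all genes. With the replicate number as a block 23 were called in delta and 15 in WT, and Cdc6 and Hells then passed in both genotypes. The all-gene share of that fit is not given here, so its counts say nothing particular to the lists. Counts over all genes also moved among the alternatives. Fits without both replicate 1 libraries of 0 h, or without 1 library at a time, leave 1 library in a group. Their counts of list genes moved widely and are not given. The calls of E2f8 held in both genotypes in all 21 alternatives that gave these contrasts, and that of Tfdp2 held in 21 in delta and 18 in WT. Without delta 24 h replicate 1 or replicate 2, Wapl, Haspin, Cep55, Cdkn1a, Ccne1, Hells and Cdc6 were not called in delta. Of the 21 alternatives, the delta call held in 12 for Wapl, 19 for Haspin, 7 for Cep55, 16 for Cdkn1a, 19 for Ccne1, 18 for Hells and 19 for Cdc6. The WT call held in 16 for Cdkn1a and in 10 for Ccne1, which was not called without WT 0 h replicate 2, without any 1 of the 8 libraries of 12 h and 24 h, with median centring or with no filter.

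Some values rest on counting choices that the sources used here do not give. The labels do not say if counting used strand, and exons on the opposite strand overlap 29.3% of the exon length of Kif20a (Cdc23, at 31.6 FPKM on average), 22.8% of Ube2c (Tnnc2, 0.20 FPKM), 15.1% of Kif4 (Pdzd11, 17.7 FPKM), 12.5% of Ccna2 (Exosc9, 22.6 FPKM) and 11.1% of Prc1 (Rccd1, 8.82 FPKM). Smaller overlaps touch Plk1, Nek2, Cdca8, Nusap1 and Cdc20. The pseudogene Ccnb2-ps was at 0.819 FPKM on average beside 99.7 FPKM for Ccnb2.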

How the data were processed

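Poly(A) RNA of 12 libraries was sequenced after NEBNext Ultra II preparation, per the labels' protocols. The authors deposited 1 table of FPKM values for 47729 genes; the submitters' processing notes list cutadapt, STAR 2.5.2b, featureCounts 1.5.1, edgeR 3.16.5 and mm10, without roles, and the sources used here give no strand setting. From the deposited FPKM, whole reads were recovered with GENCODE M21 gene lengths, or lengths found from the steps for 5693 genes, with all of 28657 genes (100%) whole to within 0.01 of a read. They gave the depth (9740851 to 17571289 reads, median 12189916), shares of reads and a voom alternative. Intervals for the values are those of the model.

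Genes with at least 1 FPKM in at least 2 libraries (13981) were fitted as log2(FPKM + 1) in 1 limma model (R 4.3.3, limma 3.58.1) with 6 group means and a variance trend. Degrees of freedom were 6 residual and 3.11 prior. Changes of low genes are understated by the pseudocount of 1. Two-sided p-values of each of 12 contrasts were adjusted by Benjamini-Hochberg over all genes and called under 0.05. Tables and figures used Python 3.11.15, numpy 2.4.6, pandas 2.3.3 and matplotlib 3.10.9. The fit was also run on simulated data, with noise drawn independently for each gene and library. That simulation held no shift shared across genes, such as the replicate difference at 0 h, so it cannot test the fit for such a shift. The members and lists were chosen with earlier results of these data known, so no list was tested as a set. Full statistics are given for members called in a contrast, or for those with the smallest p, and for at most 3 genes of a list. Deviations from group means of same-numbered delta and WT libraries correlated at 0.702, 0.28 and 0.369 at 0, 12 and 24 h. Same-numbered libraries thus shared deviations most at 0 h and less at 12 h and 24 h. The labels do not say that the replicate numbers pair the samples. The main model held no replicate block, although mitochondrial reads split by replicate number within every group. Blocks were run among the alternatives. The alternatives were other pseudocounts, filters and scalings, voom, replicate blocks, leaving out each library, and, chosen after seeing the data, leaving out both replicate 1 libraries of 0 h and removing a coding length trend.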

Additional observations from a re-analysis of the deposited data

Results flagged for a closer look

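Ube2c and Top2a were picked out because both delta pairs moved one way and both WT pairs the opposite way between 0 h and 12 h. The pattern did not hold at 24 h, when both WT libraries lay above the same-numbered 0 h library. Ube2c was then at 102.7 and 99.9 FPKM in WT, against 93.6 and 98.6 FPKM at 0 h. Top2a was at 101.5 and 80.7 FPKM in WT, against 89.2 and 73.5 FPKM at 0 h. For Ube2c the 0 h to 12 h change within same-numbered libraries was 0.127 and 0.213 in delta and -0.029 and -0.276 in WT. This is on the log2(FPKM + 1) scale, and the difference between genotypes was 0.322. For Top2a the changes were 0.356 and 0.114 in delta and -0.049 and -0.219 in WT, with a difference of 0.369. The limma interaction test of each difference gave an adjusted p of 1 over all genes, so neither was shown to differ.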

How the results depend on the processing

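Over 22 alternatives, the contrasts of delta against WT and the differences in change kept 0 members called in every setting run, and so did both changes from 12 h to 24 h. Quantile normalization called 2 members for the 0 h to 12 h change in delta (Aurkb, Cdc20) and moved the member median there to 0.407. Without both replicate 1 libraries of 0 h, 2 members were called for that change, 4 for the 24 h change in delta and 1 for the 24 h change in WT. With the coding length trend removed, 1 and 2 were called for the 12 h and 24 h changes in delta, and with no filter 0 for the 24 h change in delta. With the replicate block, 1 member (Nusap1) was called for the 0 h to 12 h change in WT; the block changed no other member's call, while over all genes the count for that contrast was 989 with the block and 563 without, in delta 1605 and 979, and for 12 h to 24 h 163 and 57 in WT and 350 and 190 in delta. Leaving out 1 library in turn gave 0 to 17 members for the 12 h change in delta, 0 to 14 for the 24 h change in delta and 0 to 1 for the 24 h change in WT. Where 1 library of a group remained, it was assumed to vary like the other groups. Member counts from such fits were not set beside the all-gene count of the same fit, so they say nothing particular to the members. Over all genes the counts called across the alternatives were 173 to 4522 (delta) and 130 to 1169 (WT) for the 12 h change, 789 to 5080 and 596 to 2830 for the 24 h change, 13 to 713 and 0 to 335 for 12 h to 24 h, and at most 18 in a genotype contrast. The cause of these moves was not tested. With 2 libraries a group, the median SE of a member's change was 0.213.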
